A study of Mus musculus with 3 samples.

Results

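The 10 genes described here encode ligands and receptors of the vascular endothelial growth factor (VEGF) and angiopoietin systems. They are the ligands Vegfa, Vegfc and Angpt2, the VEGF receptors Kdr, Flt1 and Flt4, the co-receptors Nrp1 and Nrp2, and the angiopoietin receptors Tek and Tie1. The rule that selects them names symbols and uses no measured value, but it was written with earlier results of these data known, and all 10 were found among the 18287 genes listed in each of the tables against control. RNA of commercially obtained mouse endothelial cells from the aorta, whose inner lining they form, was sequenced in 3 libraries, 1 per group. Control cells received neither agent. A second group received glucose oxidase, an enzyme that releases hydrogen peroxide as it oxidises glucose, at a dose of 5 mU/mL and for 30 min. In the third group the same enzyme exposure was combined with ethyl-2-hydroxybenzylamine (Et2HOBA) at 0.2 mM for 24 h. Et2HOBA is used as a scavenger of isolevuglandins, reactive products of lipid oxidation, and the series asks how these products act in endothelial cells under high levels of reactive oxygen species. The mouse strain, age and sex and the number of cultures are not given in the labels, the timing of one agent relative to the other is not stated, and cells given Et2HOBA alone were not analysed here.

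VEGF-A is a secreted growth factor that drives endothelial division, migration and permeability, mainly through the receptor tyrosine kinase encoded by Kdr (VEGFR2). Flt1 encodes VEGFR1, which binds VEGF-A tightly and can act as a decoy, and Flt4 encodes VEGFR3, the receptor of VEGF-C in lymphatic and sprouting vessels. Neuropilins bind VEGF as co-receptors. Angiopoietins act through Tie2, the product of Tek, which keeps resting vessels stable, and Tie1 is a related receptor that pairs with Tie2. Angiopoietin-2 is released by activated endothelium and can oppose Tie2 signalling.

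Each group is 1 library, so differences below come without a replicate check and conditions could not be tested against each other. The 95% intervals are exact Clopper-Pearson intervals on the reads of the libraries compared, so they cover counting error only. Reads over the 18258 genes with values in all 3 libraries numbered between 34869768 and 40046418 per library. Normalized counts are reads divided by a size factor per library, and log2 ratios were taken after adding 10 to each normalized count, which understates changes of low genes. For the glucose oxidase library, read counts were back-calculated from deposited log2 differences. Where values are listed without group names, they keep the order control, enzyme alone, enzyme plus Et2HOBA. All 9 vascular endothelial markers examined were listed. Their summed normalized count was 241919 in the control library, 174335 after the enzyme alone and 166937 with Et2HOBA, a difference that rests largely on Cldn5 and Vwf. Past 1 log2 unit, 1 of the 9 was lower after glucose oxidase and 3 were lower with Et2HOBA, namely Cldn5, Vwf and Erg. Over all genes 8.61% and 8.05% were lower past that limit, so 1 of 9 is near the background. Emcn went the other way, with 5373, 6333 and 7936 reads, and Cdh5 was highest with Et2HOBA. Bulk RNA cannot tell a smaller share of endothelial cells from less of single transcripts per cell, and neither was tested. Of 6 leukocyte markers, Ptprc, Adgre1 and Cd3e were not listed, where each listed gene had at least 5 reads in its highest library, and Csf1r had 6 to 12 reads. The lysosomal gene Cd68, also in that list, had 8215, 17067 and 27799 reads, and the summed leukocyte count of 7972 to 26777 was nearly all Cd68. Of 6 fibroblast markers, Col1a2, Dcn and Lum were not listed, while Pdgfra had 107, 1325 and 2821 reads and set the list's sum of 132.8 to 2738. The 5 listed smooth muscle markers summed to 3717 to 4859 normalized counts, mostly Smtn, with Acta2 at 8 to 18 reads and Cnn1 not listed. Myh11, at 19, 35 and 73 reads, was the 1 smooth muscle marker of the 5 higher past the limit with Et2HOBA, beside 6.65% of all genes. Among lymphatic markers Prox1, Pdpn, Reln, Mmrn1 and Ccl21a were not listed, and Lyve1 had 11828, 22417 and 33226 reads. The part of these markers in the differences below was not tested.

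The 3 abundant members that differed most from control, Vegfa, Kdr and Tek, are shown with the 250 bases before their transcription start, from RefSeq promoters on GRCm38.p6. The Vegfa sequence lies at chr17:46032378-46032627 on the minus strand, that of Kdr at chr5:75978456-75978705 on the minus strand, and that of Tek at chr4:94739039-94739288 on the plus strand. Capitals mark matches to the motifs searched, and each sequence runs 5′ to 3′ toward the gene.
Vegfa: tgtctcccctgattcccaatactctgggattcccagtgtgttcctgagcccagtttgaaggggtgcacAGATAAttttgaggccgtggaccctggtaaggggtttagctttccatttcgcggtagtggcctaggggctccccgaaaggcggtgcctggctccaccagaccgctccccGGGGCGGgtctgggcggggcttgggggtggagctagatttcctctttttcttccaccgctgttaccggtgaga
Kdr: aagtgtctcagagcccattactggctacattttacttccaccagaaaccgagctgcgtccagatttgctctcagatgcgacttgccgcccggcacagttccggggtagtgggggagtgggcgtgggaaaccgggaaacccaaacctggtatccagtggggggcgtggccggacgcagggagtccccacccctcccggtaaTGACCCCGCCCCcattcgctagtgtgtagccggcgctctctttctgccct
Tek: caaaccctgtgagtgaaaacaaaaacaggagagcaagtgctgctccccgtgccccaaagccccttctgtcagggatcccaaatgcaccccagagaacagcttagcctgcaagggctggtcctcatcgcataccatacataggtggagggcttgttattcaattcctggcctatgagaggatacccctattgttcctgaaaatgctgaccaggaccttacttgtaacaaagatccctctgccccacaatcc
The search covered both strands of the 250 bases before and 50 bases after the start, for 9 members with an entry. The motifs were ACGTG, the core of the hypoxia response element, and TGATGNAA, the amino acid response element. The others were the core of the antioxidant response element, written TGACNNNGC, the motif of forkhead factors, GTAAACA, and that of GATA factors, AGATAA. ETS factors were searched as CCGGAAG, and SP factors, which bind GC-rich promoters, as GGGGCGG. The SP motif was found in 7 of the 9 members, all but Tek and Tie1, and in 23.2% of all 32851 promoters in the table. Vegfa held 1 copy, at position -73 from the start, and 1 GATA motif, at position -182. The table has 2 promoters for Vegfa, and the one nearest the annotated gene start was used. In Kdr a TGACNNNGC match, at position -50, overlapped the SP motif, and Vegfc held the only other TGACNNNGC match. That motif was in 12.4% of all promoters. The GATA motif was also found in Tek, at position 36 after the start and so outside the printed bases, and was in 11.2% of all promoters. The hypoxia, amino acid response, forkhead and ETS letters were not in these windows of the 9 members, and stood in 19.6%, 3.97%, 3.65% and 8.86% of all promoters. GC content was 52.0% for Tek, close to the median promoter at 52.7%, and between 60.3% and 70.7% for the other eight. RefSeq's start lay 0 to 8 bases from the start of the GENCODE gene for Vegfa, Kdr, Tek and Flt1, and 32 to 469 bases away for the other five.

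Vegfa was higher and the main endothelial receptors were lower in both treated libraries than in control. After glucose oxidase, 1 of the 10 members, Vegfa, was higher by 1 log2 unit or more, and 3 were lower, namely Vegfc, Kdr and Tek. Over all 18258 genes 4.07% were higher and 8.61% were lower past that limit, and over 13262 protein-coding genes the shares were 4.52% and 4.77%. Over the 15469 genes with a mean normalized count of 10 or more they were 4.61% and 9.44%. With Et2HOBA, 2 members were higher past the limit, Vegfa and Angpt2, and the same 3 were lower, against 6.65% higher and 8.05% lower over all genes 7.33% and 9.3% over protein-coding genes, and 7.47% and 8.91% over genes with a mean of 10 or more. The median log2 ratio of the 7 receptors and co-receptors was -0.54 after glucose oxidase and -0.88 with Et2HOBA, where all genes had medians of -0.01 and 0.00. All 7 were below 0 after glucose oxidase, and 5 of 7 with Et2HOBA, where Flt4 and Nrp2 were above 0; with scaling to total reads the value of Flt4 was -0.02. Both comparisons use the same control library.

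**Figure D1:**
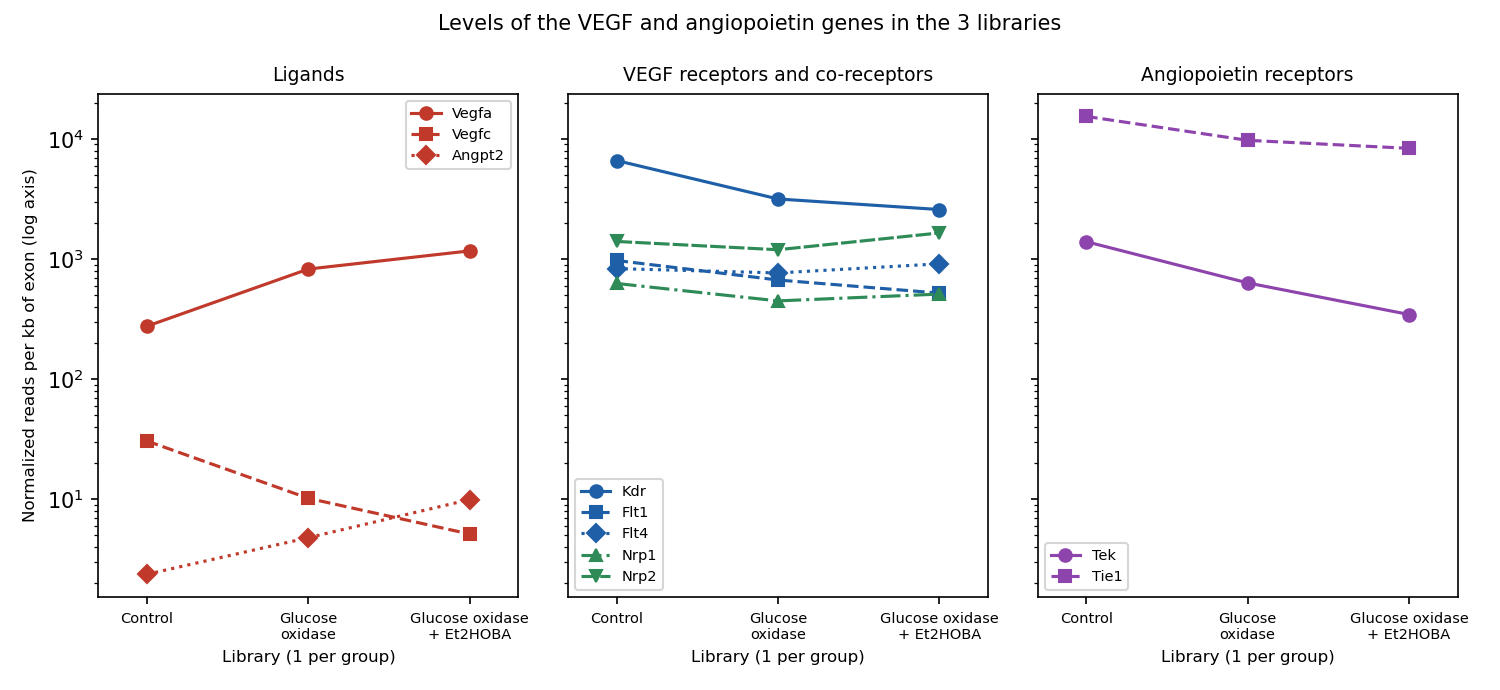
Normalized reads per kilobase of exon (log axis) for the 10 genes in the 3 libraries, 1 point per library, with lines joining the libraries for each gene. Vegfa climbs from 275.7 to 1169 reads per kilobase across the panel of ligands, while Kdr and Tek descend from 6615 to 2583 and from 1396 to 344.9.

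Among the ligands, Vegfa (ENSMUSG00000023951.17, chromosome 17, 46016993 to 46032369) was covered by 1219 control reads, by 3413 after the enzyme alone and by 5204 with Et2HOBA. The control library was the lowest and the library with Et2HOBA the highest. The normalized count was 2.99-fold that of control after glucose oxidase (95% interval 2.80 to 3.20) and 4.24-fold with Et2HOBA (3.98 to 4.52). Of 8464 protein-coding genes with a mean normalized count of 500 or more, 98.7% had a lower log2 ratio than Vegfa after glucose oxidase, and 98.5% with Et2HOBA. GENCODE lists 8 protein-coding transcripts of Vegfa, and the gene counts do not separate its splice forms.

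Vegfc (ENSMUSG00000031520.6, chromosome 8, 54077606 to 54187096), the ligand of VEGFR3, had only 77 control reads, 24 after the enzyme alone and 13 with Et2HOBA. It thus moved opposite to Vegfa, at a far lower level. The level after glucose oxidase was 0.333 of control (0.201 to 0.533), and with Et2HOBA 0.168 of control (0.0855 to 0.304). Angpt2 (ENSMUSG00000031465.6, chromosome 8, 18690263 to 18741562) was nearly silent, with 9, 17 and 38 reads in the same order. The ratio after glucose oxidase, 2.02, had an interval of 0.851 to 5.14, so a difference was not detectable at this depth. With Et2HOBA it was 4.20 (1.99 to 9.87), and the whole difference rests on 38 reads against 9. Angpt1, the main activating ligand of Tie2, was not listed.

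**Figure D2:**
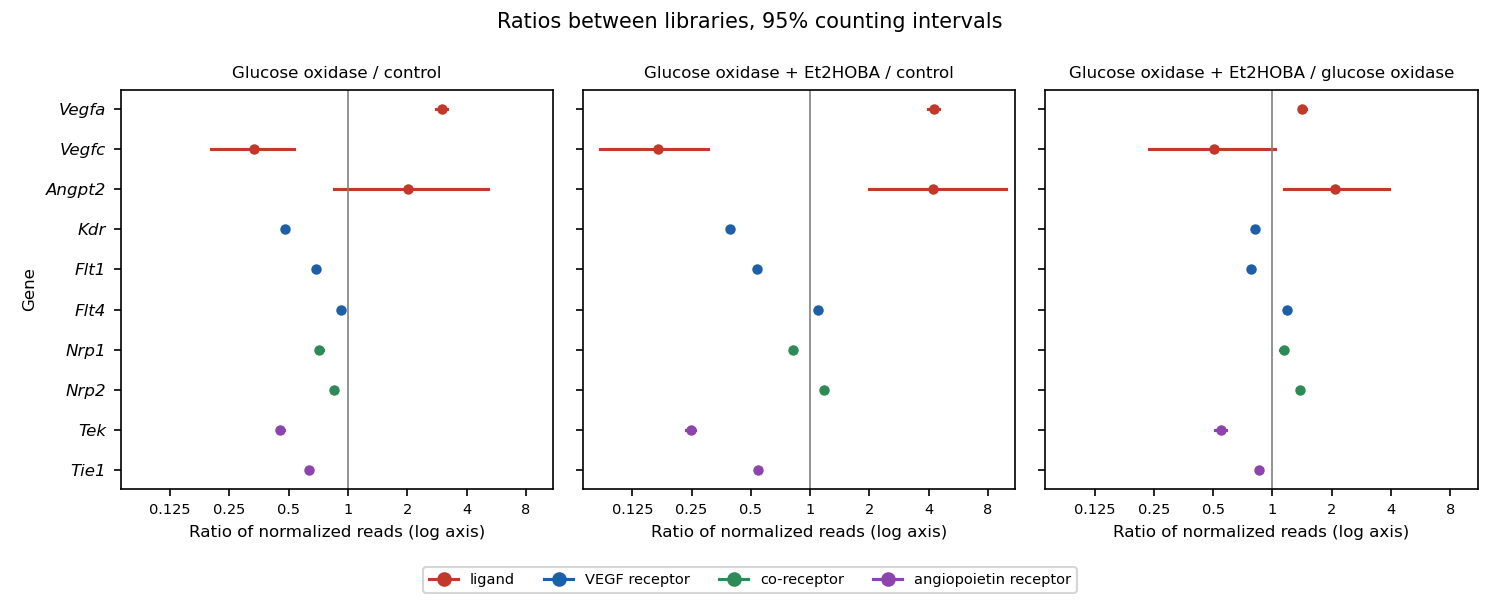
Ratio of normalized reads (log axis, 1 at the vertical line) for each gene in the 3 comparisons between libraries, where points are ratios, bars are 95% counting intervals and colours give the role. Vegfa lies at 2.99 and 4.24 against control and Tek at 0.453 and 0.247, and the widest bars belong to Vegfc and Angpt2.

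The 3 VEGF receptors differed in how far they moved. Kdr (ENSMUSG00000062960.10, chromosome 5, 75932827 to 75978458), the main signalling receptor of VEGF-A, was covered by 61640 reads in the control library, 27584 after the enzyme alone and 24227 with Et2HOBA. Control was far above both treated libraries, and the treated libraries lay near each other. The ratios to control were 0.478 (0.472 to 0.485) and 0.391 (0.385 to 0.396). Flt1 (ENSMUSG00000029648.13, chromosome 5, 147561604 to 147726011) had 13549, 8717 and 7294 reads. It kept the same order of libraries with a smaller gap, at 0.688 of control (0.669 to 0.707) and 0.535 (0.520 to 0.550). GENCODE gives Flt1 2 protein-coding transcripts, and reads of a soluble form, where present, are not separated in the gene count.

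Flt4 (ENSMUSG00000020357.3, chromosome 11, 49609263 to 49652739) had 7071, 6084 and 7796 reads, the narrowest range of the VEGF receptors. The ratios to control were 0.920 (0.889 to 0.952) after glucose oxidase and 1.10 (1.06 to 1.13) with Et2HOBA. The second lost its direction when libraries were scaled to total reads. As reads of one library, the make-up of the receptor group needs no scaling between libraries. Per kilobase, Kdr made up 78.6% of the summed level of Kdr, Flt1 and Flt4 in control, 68.8% after the enzyme alone and 64.3% with Et2HOBA. Flt4 went from 9.89% to 16.6% and 22.7% of that sum, and Flt1 stayed between 11.5% and 14.5%. In reads, the share of Flt4 was 8.60% (95% exact interval 8.41% to 8.79%), 14.4% (14.0% to 14.7%) and 19.8% (19.4% to 20.2%). The intervals of the 3 libraries did not overlap, but they cover counting error only and not the spread between cultures. Per kilobase, the Kdr level was 24.0 times that of Vegfa in control, 3.84 times after the enzyme alone and 2.21 times with Et2HOBA.

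**Figure D3:**
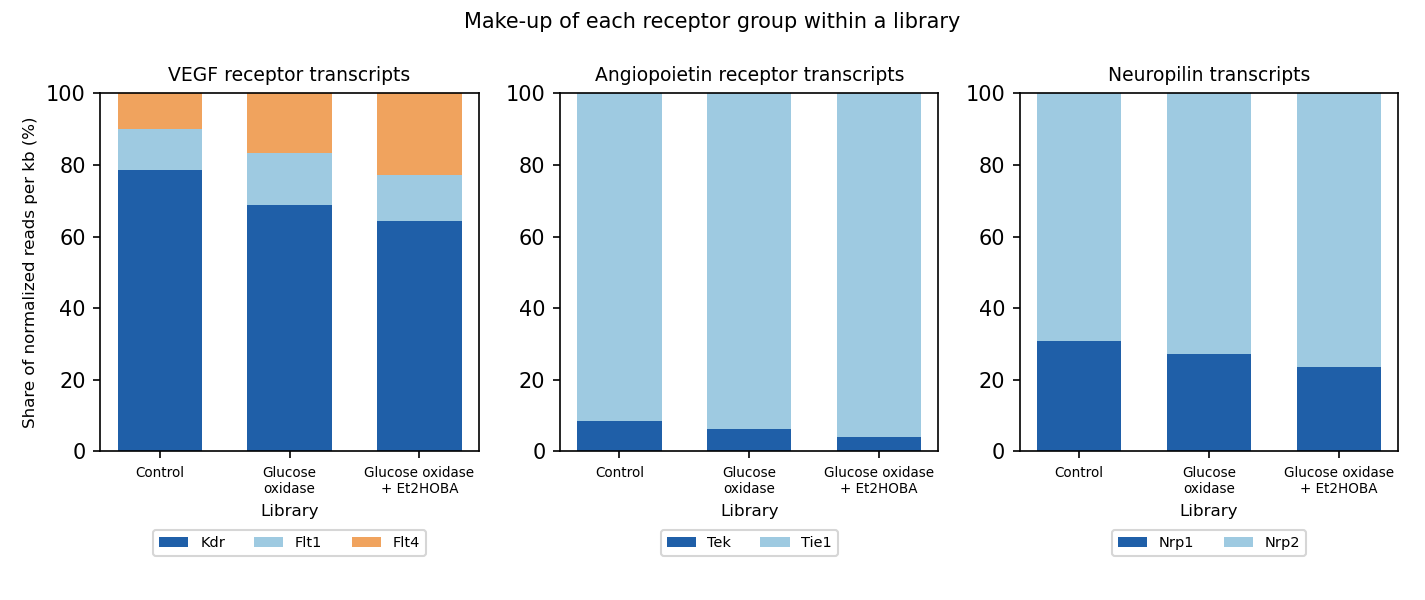
Share of normalized reads per kilobase (percent, from 0 to 100) taken by each gene within the VEGF receptors, the angiopoietin receptors and the neuropilins, 1 bar per library. The Kdr part shrinks from 78.6% to 64.3% while the Flt4 part grows from 9.89% to 22.7%, and Tek shrinks from 8.30% to 3.97% of the angiopoietin receptors.

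Neither co-receptor passed 1 log2 unit in any comparison. After glucose oxidase, though, only 8.72% of the 8464 abundant protein-coding genes had a lower log2 ratio than Nrp1. Nrp1 (ENSMUSG00000025810.9, chromosome 8, 128358604 to 128503363), which also binds semaphorins, had 6319 control reads, 4230 after the enzyme alone and 5187 with Et2HOBA. Control was the highest and glucose oxidase alone the lowest, with ratios to control of 0.716 (0.688 to 0.744) and 0.816 (0.786 to 0.846). Nrp2 (ENSMUSG00000025969.15, chromosome 1, 62703285 to 62818695), which binds VEGF-C as well as semaphorins, had 17121, 13661 and 20288 reads. Here the library with Et2HOBA was the highest, at 1.18 of control (1.15 to 1.20), and glucose oxidase alone was again the lowest, at 0.853 (0.834 to 0.872). Within the pair, Nrp1 took 27.0% of reads in control (26.4% to 27.5%), 23.6% after the enzyme alone (23.0% to 24.3%) and 20.4% with Et2HOBA (19.9% to 20.9%).

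Of the angiopoietin receptors, Tek (ENSMUSG00000006386.15, chromosome 4, 94739289 to 94874976) was covered by 6786 control reads, 2877 after the enzyme alone and 1688 with Et2HOBA. The libraries were well apart, in that order. Tek was at 0.453 of control after glucose oxidase (0.434 to 0.473) and at 0.247 with Et2HOBA (0.234 to 0.261). Only 1.81% and 1.54% of the 8464 abundant protein-coding genes had lower log2 ratios than Tek in these comparisons. Tie1 (ENSMUSG00000033191.14, chromosome 4, 118471191 to 118490061) had 78258, 46273 and 42662 reads. Its ratios, 0.632 (0.625 to 0.639) and 0.542 (0.535 to 0.548), were nearer to 1 than those of Tek. Tek thus took a decreasing part of the reads of Tek and Tie1, 7.98% (7.80% to 8.16%) in control, 5.85% (5.65% to 6.06%) after the enzyme alone and 3.81% (3.63% to 3.99%) with Et2HOBA. Ptprb, which encodes the phosphatase that dephosphorylates Tie2, had 11151, 6591 and 6281 reads.

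**Figure D4:**
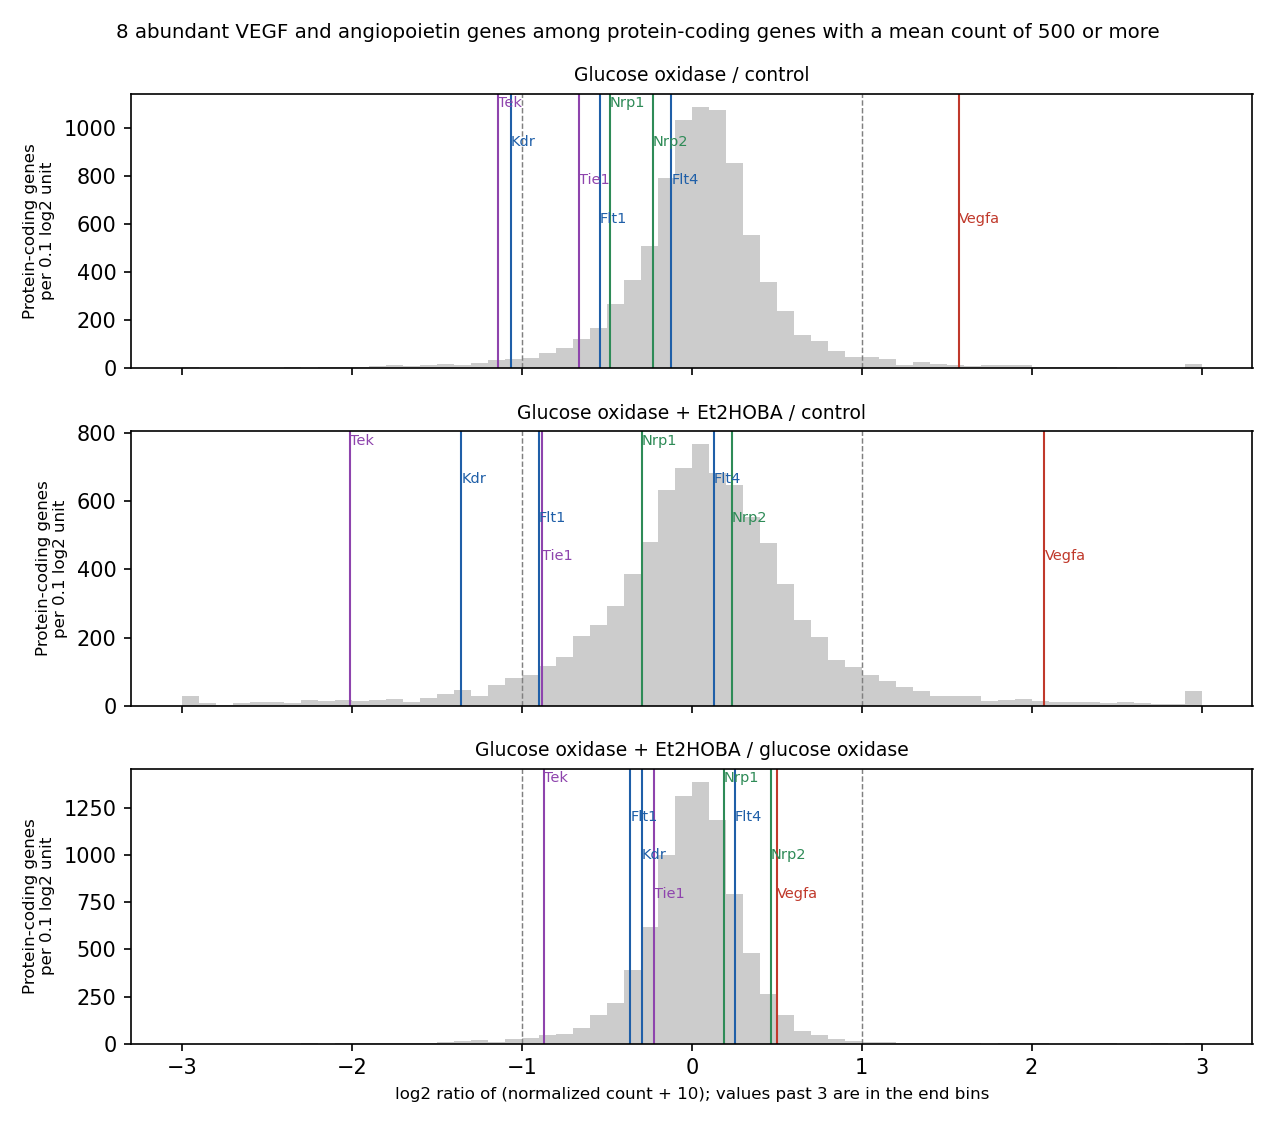
Distribution of log2 ratios of normalized count plus 10 over 8464 protein-coding genes with a mean normalized count of 500 or more (grey, genes per bin), with vertical lines for the 8 abundant members and dashed lines at 1 log2 unit. Vegfa stands at 1.57 and 2.08 in the upper tail against control and Tek at -1.14 and -2.01 in the lower tail, while Flt4 and Nrp2 stand within the bulk of genes.

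Levels between genes were ranked as normalized reads per kilobase of merged exons, which depends on which transcripts are used. The shares given in reads above also carry differences in gene length. Tie1 was the highest of the 10 in every library, at 15423, 9748 and 8354 reads per kilobase, above 98.7% or more of protein-coding genes in each. Kdr and Nrp2 took the next places in each library. In control Nrp2 and Tek, at 1401 and 1396 reads per kilobase, could not be told apart within counting error (interval of their ratio 0.976 to 1.03). Below them came Flt1, Flt4, Nrp1 and Vegfa at 972.2, 832.3, 625.8 and 275.7 reads per kilobase, then Vegfc at 30.5 and Angpt2 at 2.36. Vegfa moved from the eighth place in control to the fourth in both treated libraries, at 825.1 and 1169 reads per kilobase. Tek moved from the fourth place to the seventh and then the eighth. With Et2HOBA, Flt1 and Nrp1 did not differ beyond counting error (ratio 1.02, 0.983 to 1.06). Vegfc and Angpt2 were in the last places throughout and changed order with Et2HOBA, when they had 13 and 38 reads.

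The direct comparison sets the treated libraries against each other and asks how the members differed when Et2HOBA was added. It is not free of the control library, which entered the recovery of the glucose oxidase counts and the size factors. None of the 10 members passed 1 log2 unit in either direction, where 6.4% of all genes were higher and 2.15% lower, 0.973% and 2.34% of protein-coding genes, and 6.76% and 2.43% of genes with a mean of 10 or more. Members were spread evenly around 0, with 5 above and 5 below and a median of -0.02. Tek was the lowest, with a log2 ratio of -0.87 and a level with Et2HOBA 0.545 of that after glucose oxidase alone (0.513 to 0.579). Flt1 was at 0.778 (0.754 to 0.802), Kdr at 0.816 (0.802 to 0.831) and Tie1 at 0.857 (0.846 to 0.868). On the other side, Angpt2 was 2.08-fold higher (1.14 to 3.93), Vegfa 1.42-fold (1.36 to 1.48), Nrp2 1.38-fold (1.35 to 1.41), Flt4 1.19-fold (1.15 to 1.23) and Nrp1 1.14-fold (1.09 to 1.19). For Vegfc the interval of 0.235 to 1.03 around 0.503 included equal levels. The library with Et2HOBA thus lay farther from control than glucose oxidase alone for Vegfa, Kdr, Flt1, Tek and Tie1, nearer to it for Nrp1, and on the other side of it for Flt4 and Nrp2.

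In the authors' deposited table of glucose oxidase against control, Vegfa had a log2 difference of 1.44, Tek of -1.09 and Kdr of -1.06. In the authors' deposited table of glucose oxidase plus Et2HOBA against control the values were 2.02, -1.98 and -1.36 for the same genes. Low genes were shrunk there: Vegfc had -0.49 and -1.11, and Angpt2 0.18 and 0.71, in the authors' deposited tables. The authors' deposited table that sets the treated libraries against each other holds 7 genes, none of them a member.

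Other genes of the pathway were taken from 6 lists. Of 5 other ligands, 4 were listed and none passed the limit after glucose oxidase, beside 4.07% of all genes higher and 8.61% lower. With Et2HOBA 2 were higher, Pgf and Angpt4, beside 6.65% of all genes. Pgf, which encodes placental growth factor, a ligand of VEGFR1, had 3078, 4002 and 9055 reads. Its ratio to control with Et2HOBA was 2.92 (2.81 to 3.05). Angpt4 had 6, 8 and 55 reads, so its difference rests on few reads. Vegfb, which encodes another VEGFR1 ligand, had 2970, 3052 and 3552 reads. Among 14 listed partners and modifiers of the receptors, 1 was higher past the limit in each comparison against control and 0 were lower. Over all genes 8.61% and 8.05% were lower, and 4.07% and 6.65% were higher, so 1 of 14 higher is near the background. The gene was Ccbe1, whose product promotes the processing of VEGF-C, with 537, 1444 and 3275 reads. Cdh5, the adhesion molecule VE-cadherin that associates with VEGFR2, had 55360, 45034 and 63665 reads, with ratios to control of 0.870 and 1.14.

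Of 25 listed genes that relay receptor signals, 0 passed the limit after glucose oxidase, on a list median of -0.05. Over all genes 4.07% were higher and 8.61% lower in that comparison. With Et2HOBA 3 were higher, Nos3, Pik3cb and Src, and 2 were lower, Ptpn6 and Pik3r1. Beside 6.65% of all genes higher and 8.05% lower, these counts are near the background and are no result about the list. Nos3, the endothelial nitric oxide synthase that VEGF signalling activates, had 30246, 47041 and 74692 reads, 1.66-fold and 2.45-fold the control level. Akt1 and Plcg1, which act below VEGFR2, had log2 ratios of 0.17 and -0.21 after glucose oxidase and 0.33 and -0.39 with Et2HOBA.

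Genes known to be induced by VEGF in endothelial cells went in both directions. Of 18 listed, 3 were higher after glucose oxidase (Plaur, Dusp5 and Ptgs2) and 3 were lower (Aplnr, Dll4 and Apln), with a median of -0.06. Over all genes 4.07% were higher and 8.61% lower. With Et2HOBA 7 were higher (Ptgs2, Dusp5, Plaur, Nr4a3, F3, Nr4a1 and Egr3) and 2 were lower (Aplnr and Apln), and the median was 0.50. Over all genes 6.65% were higher and 8.05% lower in that comparison, so the lower count is near the background. Nr4a3, F3 and Egr3 had only 10, 14 and 18 control reads. Egr1 went down, with 2752, 1999 and 1386 reads and a log2 ratio of -0.99 with Et2HOBA. Ptgs2, which encodes cyclooxygenase-2, had 1356, 3324 and 10705 reads, 7.84-fold the control level with Et2HOBA (7.41 to 8.31). Plaur, the urokinase receptor, had 837, 2944 and 4678 reads, and Dusp5, a MAP kinase phosphatase, had 273, 695 and 1651. Apln, a peptide of sprouting endothelium, had 5772, 2661 and 1750 reads, and its receptor gene Aplnr had 128, 11 and 7. Dll4, the Notch ligand of tip cells, had 390, 168 and 194 reads, and Rcan1, a calcineurin inhibitor, had 2305, 1799 and 1681. Many of these genes also respond to other stimuli.

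**Figure D5:**
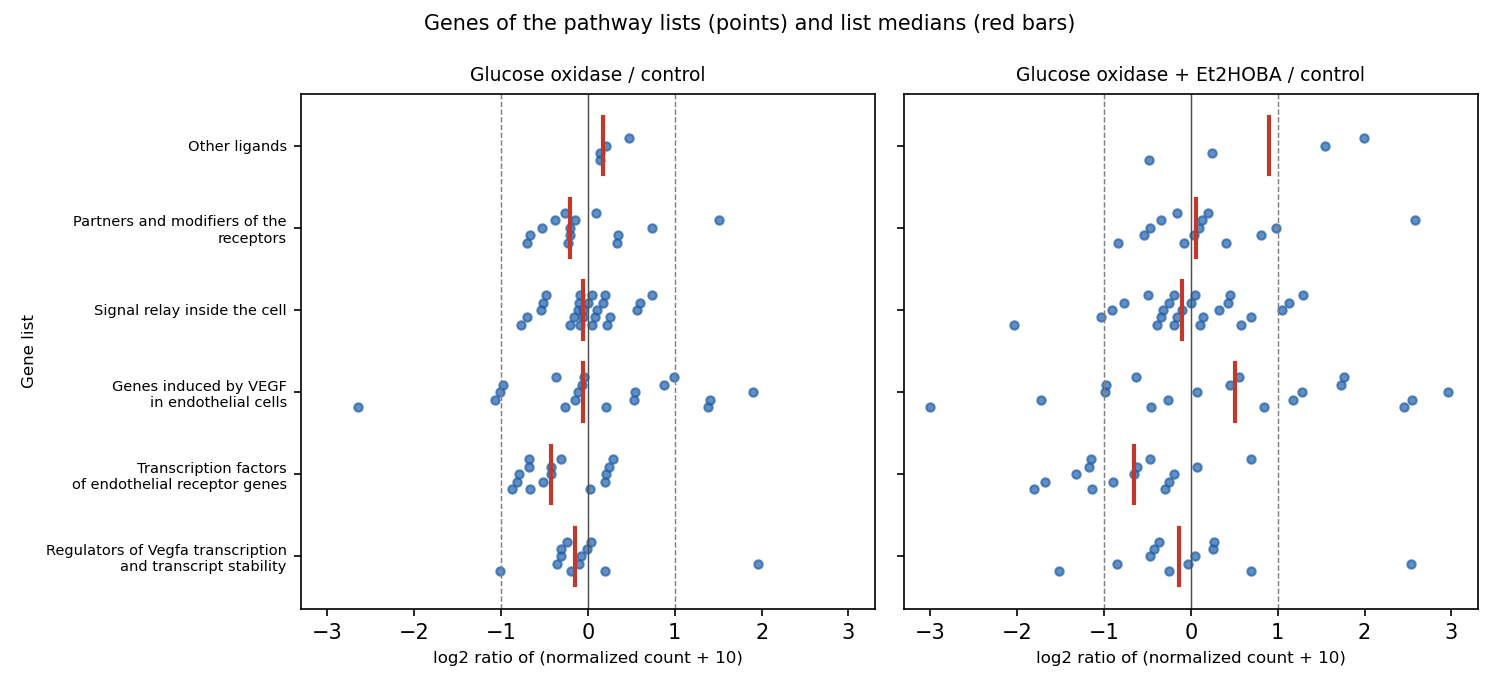
Log2 ratios of normalized count plus 10 for each listed gene of the 6 pathway lists (points) with the list median (red bar), against control, for glucose oxidase and for glucose oxidase plus Et2HOBA. The transcription factors of endothelial receptor genes have medians of -0.43 and -0.65, and the VEGF-induced genes are spread from -2.65 to 1.90 and from -3.00 to 2.96.

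Of the 15 listed transcription factors that act on endothelial receptor genes, none passed the limit after glucose oxidase, with a median of -0.43. Over all genes 4.07% were higher and 8.61% lower there. With Et2HOBA 6 were lower and none was higher, with a median of -0.65, beside 8.05% of all genes lower and 6.65% higher. The 6 were Sox18, Fli1, Lmo2, Ets1, Sox17 and Erg. Sox18 had 9014, 4854 and 2595 reads, Fli1 8374, 4260 and 2621, Lmo2 4579, 2662 and 1842, and Ets1 9458, 5005 and 4207. The levels with Et2HOBA were 0.286 of control for Sox18, 0.311 for Fli1, 0.400 for Lmo2 and 0.442 for Ets1. Gata2 and Tal1 had log2 ratios of 0.21 and 0.25 after glucose oxidase and of -0.25 and 0.07 with Et2HOBA, and Hif1a was above control in both.

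Among 12 listed regulators of Vegfa transcription and transcript stability, 1 was higher and 1 was lower past the limit in each comparison against control. These counts are near the shares over all genes, 4.07% and 8.61% after glucose oxidase and 6.65% and 8.05% with Et2HOBA, and are no result about the list. The higher one was Atf4, the transcription factor of the integrated stress response, with 3288, 11946 and 19243 reads. The lower one was Zfp36l1, an RNA-binding protein that destabilises transcripts with AU-rich elements, with 5982, 2765 and 2097 reads. Hif1a, the oxygen-regulated factor that drives Vegfa in hypoxia, had 16901, 18176 and 27585 reads, 1.15-fold and 1.62-fold the control level, and Epas1 had 18886, 14223 and 13710. HIF proteins are controlled mainly by degradation, which transcript counts do not show.

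Likeness to a member was measured as the distance between genes in their log2 ratios against control, over 3 libraries and 8640 genes with a mean normalized count of 500 or more. Nearest to Vegfa were Fez1, Lrp1 and Taldo1, at distances of 0.02, 0.04 and 0.07. Fez1 had 272, 770 and 1171 reads, and Lrp1 had 3271, 8897 and 13804. Nearest to Tek were Ifi44, Calml4 and Ifi27l2b, at 0.03, 0.03 and 0.07. Ifi44 had 994, 420 and 245 reads.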

How the data were processed

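RNA-seq of 3 libraries (control, glucose oxidase, glucose oxidase plus Et2HOBA) was made from polyadenylated RNA with a stranded kit, per the labels' protocols. The submitters' processing notes name STAR, featureCounts and mm10. Whether counting used strand is not given in the sources used here. The authors deposited raw read counts for the control and Et2HOBA libraries with a log2 difference between them, per the file headers, and log2 differences alone for glucose oxidase against control. Glucose oxidase counts were recovered by inverting an inverse hyperbolic sine transformation of the control counts. All 18258 genes with a symbol unique in both tables came out within 0.01 of a whole read (largest distance 0.000138), against 3.30% after raising each control count by 1 read; the inversion was tested on simulated data. The other 29 genes, none of them a member, were left out.

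Size factors by the median of ratios over 3 libraries (1.03, 0.965 and 1.04) scaled the counts. Folds of single genes used no pseudocount, and other log2 ratios a pseudocount of 10. With 1 library per group no count model was fitted. Exon lengths and overlaps came from GENCODE M21, in which 17878 gene IDs had the same version and position. Members shared at most 0.535% of their 50-base stretches, read in the direction of the transcript, with genes other than the members. Stretches shared between members were not searched. Only Nrp1 overlapped another gene, the microRNA Mir1903, over 80 bases. Python 3.11.15, scipy 1.17.1 and R 4.3.3 with edgeR 4.0.16 (TMM factors only) were used. Members and lists were chosen with earlier results of these data known. All members were named. Each list named up to 4 genes with a mean normalized count of 50 or more and the largest ratios with Et2HOBA past 1 log2 unit; other genes named from the lists were chosen after their values were seen. The 3 nearest genes to Vegfa and Tek were named by distance. Alternatives were total-read, TMM and protein-coding scaling, pseudocounts of 1 and 50, limits of 0.5 and 1.5, and the deposited scale.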

Additional observations from a re-analysis of the deposited data

How the results depend on the processing

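Of 180 recomputed log2 ratios of members, 149 moved by less than the distance from the middle of their counting interval to its end. Another 30 moved by more, and 1 changed sign. This was Flt4 with Et2HOBA against control, at -0.0188 with scaling to total reads. That scaling lowered the median of all genes in this comparison by 0.13, to -0.13. Of the genes past the limit, it put 35.1% on the higher side in place of 45.3%. It gave 5 members lower past 1 log2 unit in place of 3, adding Flt1 and Tie1. Of protein-coding genes, 11.5% were lower past the limit with that scaling, in place of 9.30%. At a limit of 0.5, the members higher and lower were 2 and 5 after glucose oxidase, 2 and 5 with Et2HOBA against control (the higher count unchanged), and 2 and 2 between the treated libraries. At that limit 13.6% and 13.5%, 19.1% and 21.5%, and 5.69% and 11.6% of protein-coding genes were higher and lower, so 2 of 10 higher against control is near the background. At a limit of 1.5, 1 member was higher and 0 were lower after glucose oxidase, beside 2.04% and 2.13% of protein-coding genes. With Et2HOBA against control, 1 was higher and 2 were lower, beside 3.57% and 4.80%. Angpt2, with 9 reads in control, changed the count of higher members. With Et2HOBA against control, 1 was higher with a pseudocount of 50 and on the deposited scale, beside 5.49% and 5.56% of protein-coding genes. Between the treated libraries, 1 was higher with a pseudocount of 1, beside 2.29% of protein-coding genes. Vegfc no longer passed the limit with a pseudocount of 50 in either comparison against control, or on the deposited scale after glucose oxidase. That left 2 members lower in each case. With a pseudocount of 50, 3.14% of protein-coding genes were lower after glucose oxidase and 6.47% with Et2HOBA. On the deposited scale 2.08% were lower after glucose oxidase. TMM and protein-coding size factors left each count of members as it was. No paired analysis was possible because each group had 1 library, and no library could be left out. Depth limits Vegfc and Angpt2, with 9 to 77 reads per library; for the other members the lack of replicates, and not depth, is the limit.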
